A study of Mus musculus with 2 samples.

Results

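The regions described here were intergenic FOS peaks far from the gene starts of the authors' annotation, chosen by position alone. A peak belonged to the class if the authors annotated it as intergenic and placed its centre more than 50 kb from the nearest transcription start site (TSS). These rules held for 315 of the 2374 peaks in the list (13.3%) and left 525 intergenic peaks at shorter distances, called near intergenic below. The list came from chromatin immunoprecipitation and sequencing (ChIP-seq) with an antibody to FOS in granulosa cells, the somatic cells that line the ovarian follicle. The donors were wild-type female mice aged 25 days. They had been primed with PMSG, a gonadotropin that makes follicles grow, and then given hCG, which acts on the luteinizing hormone (LH) receptor, 3 h before collection. The series holds 2 libraries from such cells, 1 with the FOS antibody and 1 whose label names no antibody, and values of the FOS library alone were analysed. No untreated cells, replicates or read counts were available to the comparisons, so depth is unknown and errors between animals cannot be given. How many animals gave the cells is not given in the sources used here, and a peak list cannot be checked for marker RNA.

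FOS pairs with a JUN protein to form AP-1, a leucine zipper factor that binds short palindromic DNA sites. Many AP-1 sites lie in enhancers, DNA elements that can act on a promoter across long stretches of chromosome by folding of the chromatin fibre. The nearest gene of such a peak is therefore a label of position and does not show which gene the site acts on. In granulosa cells the LH surge switches on Fos within the first hours, ahead of the genes of ovulation and luteinization.

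The class was checked against the RefSeq gene models of the same assembly, because the label depends on the annotation used. Of the 315 peaks, 240 lay outside every RefSeq gene span and 75 overlapped one, mostly of a noncoding gene. A protein-coding span was overlapped by 16 peaks, and for 8 of these it was the span of the peak's own nearest gene, drawn longer by RefSeq than by the authors' annotation. Both Robo2 peaks, with scores of 131 and 99, and the lower of the Prdm1 peaks, with a score of 31, were of this kind. The RefSeq promoter table had starts on the chromosomes of 301 of the peaks. Of these, 152 were also more than 50 kb from every start in that table, 149 were closer, and 14 lay within 1 kb of one. The table lacked the starts of some genes. A peak of score 125 assigned to Pdp1 was 73.0 kb from the Pdp1 span but 1087 kb from the nearest start in the table. Some of the 152 may therefore have a nearer RefSeq start. The class is thus far from the starts of the authors' annotation, and for at least 149 of 301 peaks RefSeq has a start at a shorter distance.

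In 6 of the 315 peaks the sequence just upstream of such a RefSeq start could be read, which gave 8 stretches. The 5 printed were chosen because they hold a motif, to show it in place. The other 3, 2 from the Gm32287 peak and 1 of 24 bases at Gm46162 in the peak of score 18 near Ivns1abp, hold neither motif and are not printed. Each is the part of the 250 bases upstream of the start that lies in the peak, 5′ to 3′ on the strand of the gene named, from RefSeq (GRCm38.p6). Capitals mark TGANTCA, the AP-1 site with any central base, and TGACGTCA, the related site bound by CREB and ATF proteins. Both motifs are their own reverse complement, and neither contains the other. The stretches lie at chr10:120636108-120636357 (minus strand, peak score 159), chr16:93193796-93194045 (minus, 78), chr2:44927350-44927486 (minus, 67), chr2:167777574-167777664 (minus, 67) and chr7:97788291-97788519 (plus, 51).
4930471E19Rik: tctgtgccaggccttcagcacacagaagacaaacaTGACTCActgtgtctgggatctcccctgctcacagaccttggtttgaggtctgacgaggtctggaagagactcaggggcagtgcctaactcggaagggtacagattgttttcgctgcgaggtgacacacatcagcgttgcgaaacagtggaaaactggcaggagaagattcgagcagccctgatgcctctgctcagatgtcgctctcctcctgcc
Gm30530: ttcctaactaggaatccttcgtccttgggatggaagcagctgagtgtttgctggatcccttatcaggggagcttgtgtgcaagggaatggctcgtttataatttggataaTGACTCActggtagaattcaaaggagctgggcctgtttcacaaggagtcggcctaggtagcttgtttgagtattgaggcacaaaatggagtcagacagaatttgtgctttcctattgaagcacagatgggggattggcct
Gtdc1: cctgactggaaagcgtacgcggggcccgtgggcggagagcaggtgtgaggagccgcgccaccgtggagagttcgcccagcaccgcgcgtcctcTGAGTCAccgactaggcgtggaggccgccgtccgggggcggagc
Gm32287: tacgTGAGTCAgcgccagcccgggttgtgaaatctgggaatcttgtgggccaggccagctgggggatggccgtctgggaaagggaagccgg
Pak1: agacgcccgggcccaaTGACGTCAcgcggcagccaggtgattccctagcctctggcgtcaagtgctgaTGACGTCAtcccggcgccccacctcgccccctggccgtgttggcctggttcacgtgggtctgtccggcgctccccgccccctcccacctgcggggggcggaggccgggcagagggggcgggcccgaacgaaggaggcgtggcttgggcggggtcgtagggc

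The first 4 stretches each hold 1 copy of TGANTCA, and the Pak1 stretch holds 2 copies of TGACGTCA and no TGANTCA. Pak1 encodes a p21-activated kinase. Its peak was assigned to Aqp11, a neighbouring aquaporin gene 50138 bp away, and RefSeq has a Pak1 start just outside the peak. Of the 300-base RefSeq promoter windows that overlapped a far peak, 4 of 8 held TGANTCA and 3 of 8 held TGACGTCA. Only the Pak1 window held TGACGTCA in the stretch that lay in the peak. The other 2, both of the Gm32287 peak, held it elsewhere in the window. Among all 32851 windows the shares were 7.81% and 1.79%, and among the 357 windows that overlapped a FOS peak outside the class they were 29.1% and 7.56%. With 8 windows, several from 1 peak, these counts describe the windows and set no share for the class. A match is a run of letters, not a measured site.

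The far peaks scored much like the rest of the list. The authors gave each peak a whole-number score, of unstated scale, which is used here to rank peaks of the list. Far peaks had a median score of 69 (exact 95% interval 64 to 73), with quartiles of 47 and 97.5 and a range of 18 to 354. Near intergenic peaks had a median of 67 (interval 64 to 71), introns 68 and promoters 64. The score reached the list median of 67 in 166 far peaks (52.7%, interval 47.0 to 58.3), beside 51.0% of all peaks. The share was 52.2% among near intergenic peaks (Fisher's exact test, two-sided, adjusted p = 0.943) and 50.8% among all other peaks (adjusted p = 0.606), so no difference was detected against either. Shares above higher cuts were close too. A score in the upper quartile of the list, 99 or more, was held by 75 far peaks (23.8%, beside 26% of the list), and a score of 151 or more by 35 (11.1%, beside 10.1%). The very first ranks held no far peak, but few peaks are involved, and this is not read as a trait. Leaving out the highest 1% of scores left 312 of the 315 far peaks and 2037 of the 2059 other peaks. The best far peak ranked 17, and the highest score was 1277 among near intergenic peaks and 2234 among introns.

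**Figure D1:**
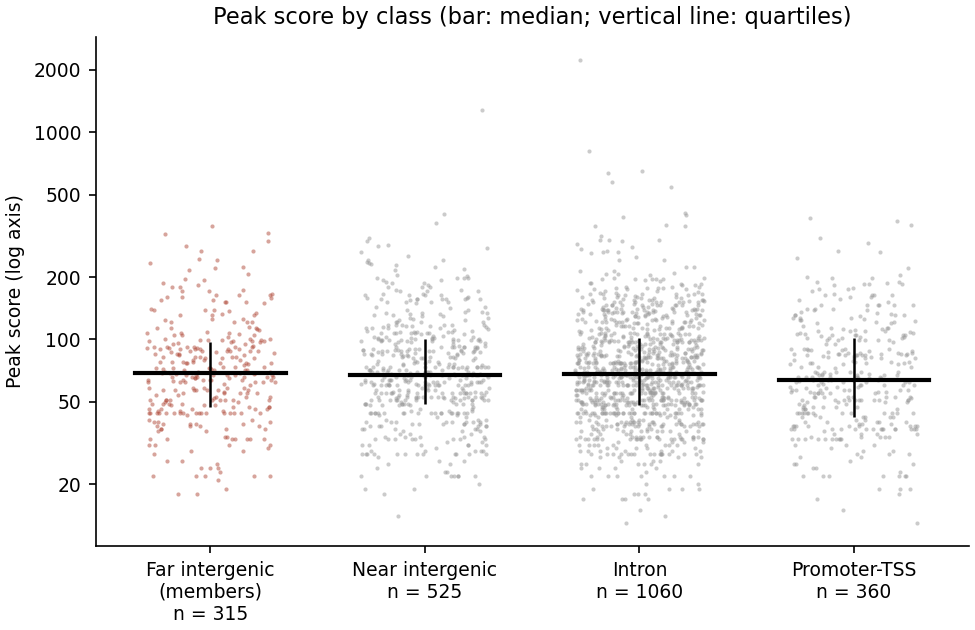
Peak score on a log axis for each peak of 4 classes, with the median as a horizontal bar and the quartiles as a vertical line. The far intergenic peaks have a median of 69 against 67, 68 and 64 in the near intergenic, intron and promoter classes, and their highest score is 354.

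Peak width gave a similar picture. The width of far peaks ranged from 268 to 777 bp, and its median was 339 bp (interval 329 to 353), against 349 bp among near intergenic peaks and 343 bp among all others. A width at or above the list median of 342 bp was found in 48.6% of far peaks, 53.5% of near intergenic peaks (Fisher's exact test, adjusted p = 0.251) and 50.6% of all others (adjusted p = 0.606). The widest far peaks lay nearest to Gorab (777 bp, score 72), a gene of a Golgi protein, to the predicted gene Gm38413 (759 bp, score 29) and to Fam161a (644 bp, score 62), a gene of a ciliary protein. None of these scored in the upper quartile. Across the 315 peaks Spearman's rho between score and width was 0.42, as a description of peaks from 1 library.

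Distance within the class and score were only loosely related. The median distance was 101 kb, with quartiles of 69.6 and 167 kb and a range of 50138 to 861913 bp, which the rule itself bounds from below. Spearman's rho between score and distance was 0.09. Between 50 and 100 kb there were 154 peaks with a median score of 66, between 100 and 200 kb 100 peaks with a median of 72.5, and between 200 and 500 kb 52 peaks with a median of 70. Only 9 peaks lay beyond 500 kb. Their median score was 50 and 1 of them reached the upper quartile.

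The 5 most distant peaks had scores of 37 to 91. The farthest lay 861913 bp downstream of the TSS of Adgrl2, which encodes the adhesion receptor latrophilin 2, and scored 51. Next came a peak of score 50 at -808108 bp from Tbl1xr1 (a negative distance is upstream), a gene of a nuclear receptor corepressor subunit. The peak 724044 bp downstream of Inhba, which encodes the beta A subunit of activin and inhibin, scored 91 and was the highest of the 5. It lay 119 kb from the span of Sugct and 707 kb from the span of Inhba. Peaks 719516 bp downstream of Efna5, an ephrin gene, and at -611042 bp from Plxdc2, a gene of a plexin-domain membrane protein, both scored 37. At the border of the class, the members just inside were a peak of score 51 at -50138 bp from Aqp11, a peak of score 96 at 50531 bp from Fam173b and a peak of score 134 at -50601 bp from Ednra. The intergenic peaks just outside lay at 49978 bp from Fam173b (score 69), -49601 bp from Ccnl1 (score 60) and -49570 bp from Gm2109 (score 88).

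**Figure D2:**
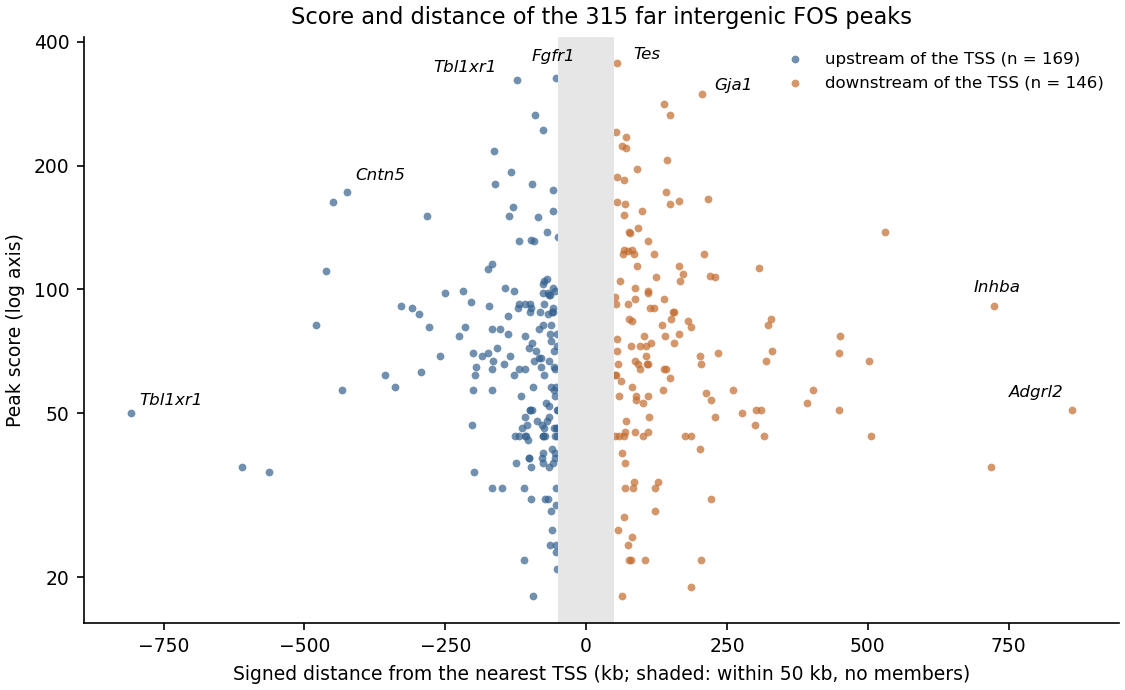
Peak score (log axis) against the signed distance from the nearest TSS in kb for the 315 far intergenic peaks, upstream in blue and downstream in orange. The highest scores, 354 at Tes and 327 at Fgfr1, lie close to the 50 kb border, and the peaks beyond 500 kb have a median score of 50.

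The 10 highest-scoring far peaks had scores of 234 to 354 and 10 different nearest genes. The highest score, 354, belonged to chr6:17119426-17119971, which lay 54.5 kb downstream of the TSS of Tes, a gene of the focal adhesion protein testin. It ranked 17 in the whole list. It was 13.6 kb from the Tes span and 161 kb from that of Cav2, a caveolin gene. The second score, 327, at chr8:25465476-25465935 lay 53.1 kb upstream of Fgfr1, the gene of a fibroblast growth factor receptor. The next, 322, at chr3:21952865-21953335 lay 124 kb upstream of Tbl1xr1, in a stretch of 1709 kb without a protein-coding gene span. Tbl1xr1 was thus the nearest gene of both a peak of rank 21 and 1 of the most distant peaks.

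Gja1 and the interval from Runx1 to Setd4 followed. Gja1 encodes connexin 43, the main gap junction protein that couples granulosa cells. A peak of score 298 at chr10:56582086-56582511 lay 205 kb downstream of its TSS, and further far peaks lay at 109 kb (score 99) and 221 kb (score 54). The Gja1 peak of score 298 had no protein-coding gene span on its other side for 901 kb, where Hsf2 begins. A peak of score 282 at chr16:93220483-93220981 was assigned to the noncoding gene 1810053B23Rik, 139 kb away, and lay in the interval bounded by Runx1 and Setd4. Runx1 encodes a transcription factor that the LH surge induces, and Setd4 a methyltransferase.

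The other 5 of the 10 highest scores ran from 234 to 266. Peaks of score 266 lay 149 kb downstream of Sipa1l2, a gene of a RAP GTPase-activating protein, and 90.7 kb upstream of Irf2bp2, a gene of a transcriptional corepressor. The score of 244 lay 76.2 kb upstream of Dpysl3, which encodes a cytoskeletal regulator of the CRMP family. It was also 1.93 kb from the span of the predicted gene Gm3650, so that far from a TSS did not always mean far from a gene. The score of 241 lay 53.0 kb from Lrrc74a and 93.1 kb from the span of Irf2bpl, a relative of Irf2bp2. The score of 234 lay 70.0 kb from Gm4832, with Foxn2, a forkhead factor gene, 245 kb away on the other side. The lowest score in the class was 18, at 2 peaks, 93.6 kb upstream of Ivns1abp and 63.0 kb downstream of Uchl5.

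Of the far peaks 169 (53.7%, exact 95% interval 48.0 to 59.3) lay upstream of the nearest TSS and 146 downstream. Upstream shares were 73.5% among near intergenic peaks and 43.2% among all other peaks. No test of these shares is given, because the side comes from the same distance and annotation that chose the class. The intergenic label itself was uneven between the sides. Of the 916 peaks within 50 kb downstream of a TSS 15.2% were intergenic, against 47.0% of the 821 within 50 kb upstream. Beyond 50 kb the shares were 36.6% of 399 and 71.0% of 238.

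Far peaks had fewer close neighbours. Another FOS peak of any class lay within 10 kb of 19 far peaks (6.03%, interval 3.67 to 9.26), beside 10.9% of all peaks. The share was 15.0% among near intergenic peaks (Fisher's exact test, adjusted p = 1.84e-04) and 11.6% among all other peaks (adjusted p = 0.00489). The median distance from a far peak to the next FOS peak was 237 kb, against 108 kb for near intergenic peaks, and for 57 far peaks the next one was over 1000 kb away. With only peaks at or above the median score, neither difference passed Fisher's exact test (-4.07 and -2.14 points, adjusted p = 0.246 and 0.467). That from all other peaks also did not pass Fisher's exact test with far set at over 25 kb (-3.10 points, adjusted p = 0.0629) or with 1 peak kept per run of close peaks (-2.53 points, adjusted p = 0.114).

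**Figure D3:**
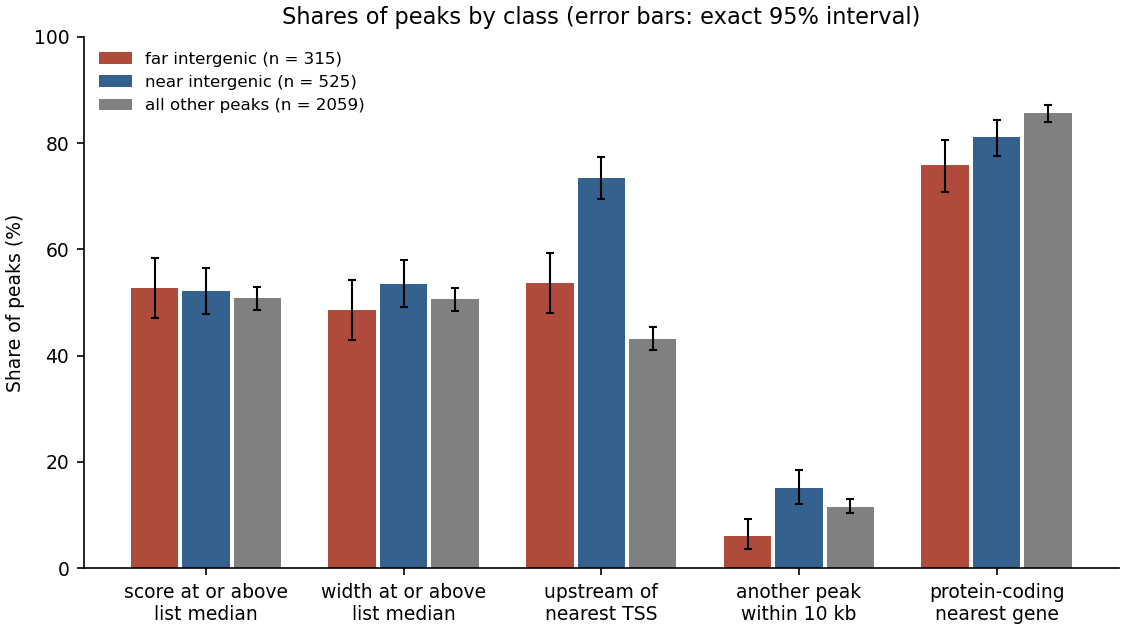
Shares of peaks in percent, with exact 95% intervals, for 5 features in 315 far intergenic peaks, 525 near intergenic peaks and the 2059 peaks outside the far class. The bars for score and width are close to each other, while far peaks are upstream in 53.7% against 73.5% of near intergenic peaks and have a neighbour within 10 kb in 6.03% against 15.0%.

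Some far peaks nevertheless came in groups. Another FOS peak of any class within 50 kb was still less frequent for far peaks than for the peaks compared. Against near intergenic peaks the difference was -17.0 points (Fisher's exact test, adjusted p = 9.67e-07). Against all other peaks it was -11.9 points (Fisher's exact test, adjusted p = 4.29e-05). Groups were counted for far peaks alone, so grouping is not read as a trait of the class. With gaps of at most 50 kb between far peaks, 267 stood alone, 28 formed 14 groups of 2, and 20 formed 6 larger groups. The group in the interval from Runx1 to Setd4 held 4 peaks within 96.6 kb, with scores of 122, 78, 282 and 90 in the order of position. All 4 were assigned to 1810053B23Rik and lay 324 to 421 kb from the Runx1 span and 336 to 433 kb from the Setd4 span. The peak of score 282 was 394 kb from Runx1 and 362 kb from Setd4. The Gm30530 sequence printed above comes from the peak of score 78 in this group.

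A further group of 4, within 49.3 kb, lay in and beside Gtdc1, a glycosyltransferase gene, next to Zeb2, which encodes a transcriptional repressor of epithelial genes. Its scores were 174, 67, 48 and 92, and the last of these was 13.9 kb from the Zeb2 span. The peaks of score 174 and 67 lay inside the longer Gtdc1 span that RefSeq draws, and the second holds the Gtdc1 sequence printed above. They were assigned to Gtdc1, and the other 2 to Mir5129. None of the 4 had Zeb2 as its nearest gene.

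The remaining 4 groups had 3 peaks each. From Slc45a1, a sugar transporter gene, to Errfi1, which encodes a feedback inhibitor of the EGF receptor, the scores were 74, 92 and 188. The highest lay 53.7 kb from the Errfi1 span and was assigned to the noncoding gene 1700045H11Rik. Between Irf2bp2 and Tomm20, a gene of a mitochondrial import receptor, the scores were 33, 64 and 223, rising toward Tomm20, which also had nearer peaks of score 187 and 127. Between Lrrc74a and Irf2bpl they were 241, 125 and 71, and upstream of Rnf19a, a ubiquitin ligase gene, 51, 67 and 90. The highest score of each group was at an end in 5 of the 6 groups and inside in the Runx1 to Setd4 group. In a group of 3 only the middle peak is not at an end, so this count is not read as a pattern.

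**Figure D4:**
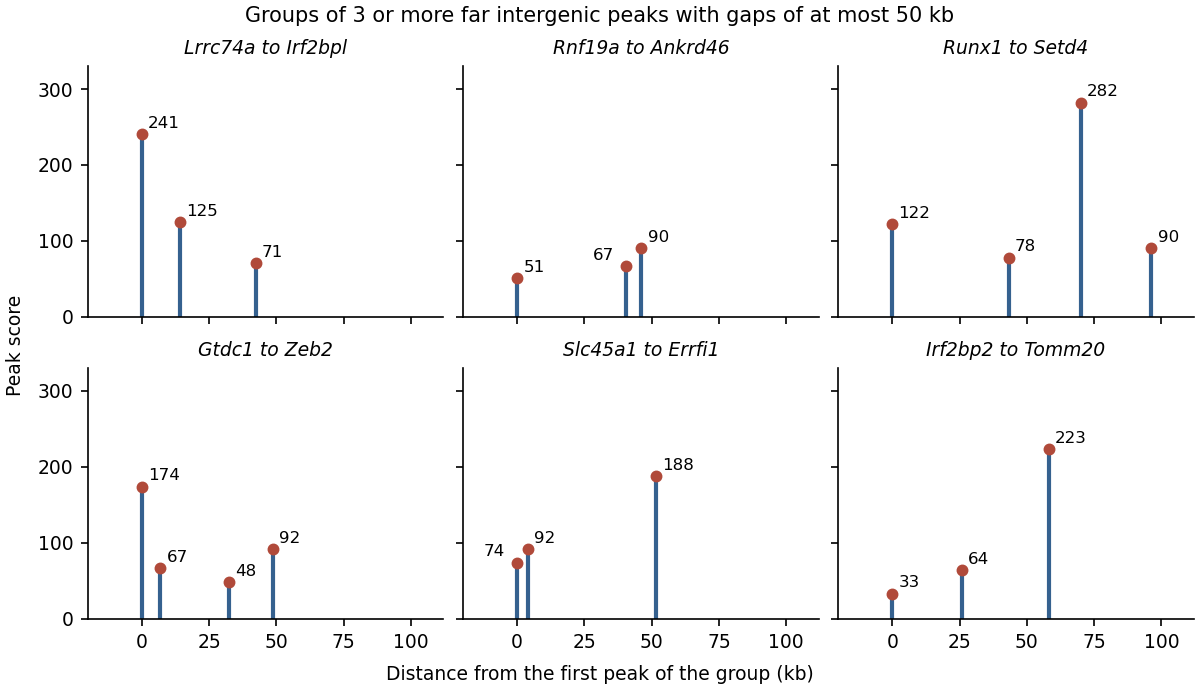
Peak score against the distance in kb from the first peak of the group, for the 6 groups of 3 or more far intergenic peaks, each named by the protein-coding genes beside it. The group from Runx1 to Setd4 spans 96.6 kb with its highest score, 282, inside, and the other groups span 42.8 to 58.5 kb.

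The 315 peaks had 268 nearest genes, most of them once. There were 230 genes with 1 far peak, 30 with 2 and 8 with 3 or more. Of the 268 genes, 55 (20.5%) were also the nearest gene of a FOS peak outside the class, and 5 of these had a promoter peak. For comparison, 79 of the 476 nearest genes of near intergenic peaks (16.6%) had a peak outside their class. The 8 genes with 3 or more far peaks were 1810053B23Rik (4 peaks), Gja1, Tomm20 and Rnf19a, already described, and Nr5a2, Trib2, Snx10 and Cd180 with 3 each.

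Nr5a2 encodes the nuclear receptor LRH-1, which ovulation and steroid synthesis need in granulosa cells. Its far peaks lay 115, 168 and 278 kb upstream of the TSS with scores of 55, 57 and 81, and an intronic peak of the gene scored 29. The scores of the far peaks were thus all above that of the intronic peak. Trib2, a gene of a Tribbles pseudokinase, had far peaks 88.0, 154 and 329 kb upstream with scores of 48, 80 and 91. Snx10, a sorting nexin gene, had them 123, 176 and 213 kb downstream with scores of 29, 44 and 56. Among the far peaks assigned to Nr5a2, Trib2, Snx10 and Rnf19a the score was higher at each greater distance. At Tomm20 it was lower at each, with 223, 64 and 33 at 63.9, 96.2 and 122 kb. The scores at Gja1, 1810053B23Rik and Cd180 followed neither order. With so few peaks per gene, these orders are not read as a pattern. They also leave out far peaks assigned to other genes. A peak of score 114, assigned to Platr22, lay 55.9 kb from the Nr5a2 span. Peaks of score 85 and 70, assigned to Lpin1 and Mir6387, lay 444 and 225 kb from the Trib2 span. At Cd180, a gene of a Toll-like receptor relative in B cells, the far peaks lay 109, 167 and 462 kb upstream with scores of 44, 33 and 111. The last of these was 463 kb from Pik3r1, the gene of a regulatory subunit of PI3 kinase, and 462 kb from Cd180.

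A protein-coding nearest gene was less frequent among far peaks than among all other peaks, with no difference detected against near intergenic peaks. The nearest gene was protein-coding for 239 far peaks (75.9%, exact 95% interval 70.8 to 80.5), a long noncoding RNA for 61, a microRNA for 14 and a pseudogene for 1. The share was 81.1% among near intergenic peaks (Fisher's exact test, two-sided, adjusted p = 0.132) and 85.6% among all other peaks (adjusted p = 1.37e-04). The call against all other peaks held under each alternative tried. Of the 2059 other peaks, 1060 were annotated in introns and 360 at promoters, by the same annotation that chose the class. The near intergenic peaks are therefore the like comparison.

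For the 299 far peaks outside protein-coding spans, the nearest coding gene on each side was found. The stretch between the flanking coding genes had a median length of 337 kb. It was over 1000 kb for 46 peaks and under 200 kb for 91. The farther gene was less than 2 times as far away as the nearer in 103 of 299 peaks (34.4%). Of the 226 peaks among them whose nearest gene was protein-coding, 182 had that gene as the nearer span and 44 did not, and for 222 it was 1 of the flanking genes.

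**Figure D5:**
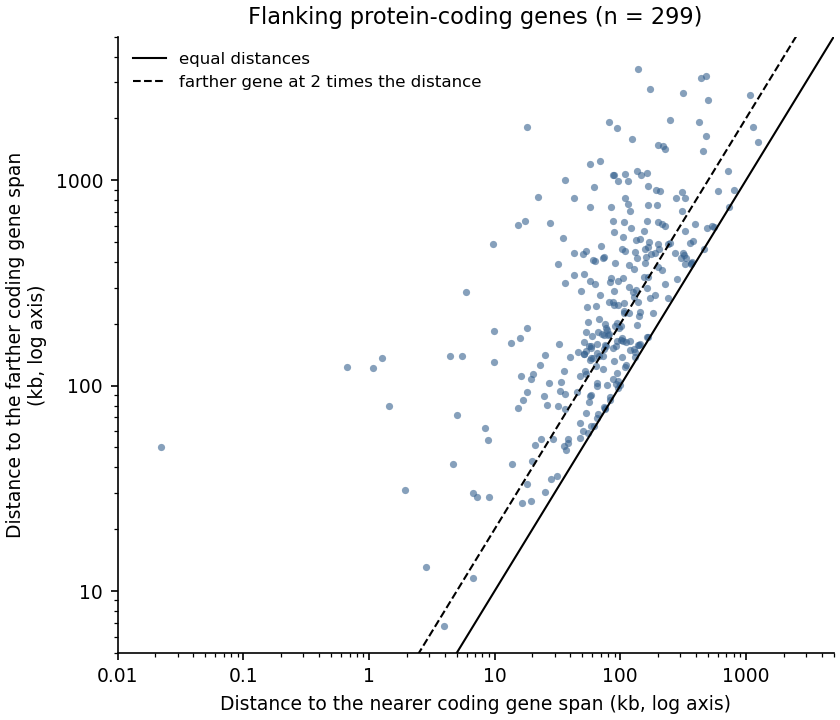
Distance in kb from each of 299 far intergenic peaks to the nearer and the farther flanking protein-coding gene span, both on log axes. The 103 points between the solid line (equal distances) and the dashed line (2 times the distance) are peaks with both genes at like distances.

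Some further loci are given as values, chosen after these were seen. Peaks of score 161 and 155 were assigned to the noncoding gene Gm5420 and lay 42.5 and 91.6 kb from Sgk1, the gene of a kinase that steroid hormones induce. The peak of score 166 assigned to Map3k7, a kinase gene of TGF-beta signalling, lay 58.2 kb from Bach2, a bZIP repressor gene. The far peak assigned to Bach2 itself scored 64. It lay 167 kb upstream of the TSS and inside the Bach2 span that RefSeq draws. A peak of score 184 assigned to Hs1bp3 lay 117 kb from Rhob, a small GTPase gene. That of score 180 assigned to Akr1e1 lay 1090 kb from Klf6, a zinc finger factor gene, and a peak of score 76 lay 57.6 kb from it. A peak of score 164 lay 164 kb downstream of the TSS of Mycn, a MYC family gene, which was its nearest gene. Cited2, a gene of a hypoxia-response coregulator, had a peak of score 91 lying 173 kb upstream, in a stretch of 2952 kb without a coding gene span.

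Genes of 14 pathway lists were then looked up among the nearest genes. Over all 21887 protein-coding genes 204 (0.932%) were the nearest gene of a far peak, and 491 (2.24%) flanked 1 on either side. Shares of the lists are read beside these. They were not tested, and the lists were chosen with earlier results of these data known. Genes with wide surroundings also have more room for a far peak. A share above 0.932% is therefore not read as a preference of FOS for a list. Of the 357 genes in the lists 33 are in 2 or more of them. The median best score over all genes with a far peak was 70.5.

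Of 32 genes of the LH surge and ovulation, 5 (15.6%) were the nearest gene of a far peak, with a median best score of 80. Hif1a, a hypoxia-response factor gene, had a peak of score 99 128 kb upstream and 1.08 kb from the span of the kinase gene Prkch. Inhba had, besides the peak of score 91, a peak of score 44 lying 101 kb downstream. Nrip1, a gene of a nuclear receptor corepressor needed for ovulation, had 1 of score 80 at 167 kb upstream. Has2 encodes the enzyme that makes hyaluronan for the expanding cumulus. Its peak, of score 48, lay 70.0 kb upstream, and another of score 58 lay 314 kb from its span. Lhcgr, the LH receptor gene, had a peak of score 31 lying 72.7 kb upstream, on the side of Fshr, the FSH receptor gene, whose span was 120 kb away.

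When either flanking coding gene was counted, 10 of the 32 ovulatory genes had a far peak. The 5 gained were Runx1 and Errfi1, described above, Ptgs2, Cebpb and Vegfa. Ptgs2, the gene of the inducible prostaglandin synthase, was 152 kb from a peak of score 38. Cebpb, a bZIP factor gene, was 87.1 kb from a peak of score 67, the peak that holds the Gm32287 sequence. Vegfa, the gene of the main angiogenic factor, was 164 kb from a peak of score 64.

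Lists of transcription factors had 9.68% to 13.6% of their genes as nearest genes. Of 22 granulosa factors 3 were covered, Nr5a2, Hif1a and Zfpm1 (score 46), the last a GATA cofactor gene. Of the 22, 7 flanked a far peak, Foxo1 and Sox4 among them. Foxo1 lay 188 kb from a peak of score 57 that was assigned to Gm2447. Sox4 lay 635 kb from a peak of score 109 that was assigned to Prl5a1. Of 37 developmental factors 4 were covered, Prdm1 (87), Irx3 (69), Maf (65) and Tcf7l2 (49). These are a transcriptional repressor that acts in the B-cell and germ-cell lineages, a homeobox factor, a bZIP factor and a nuclear effector of WNT signalling. Of 24 KLF and early-response factors 3 were covered, Btg1 (82 and 64), an antiproliferative gene, Klf7 (69) and Nr4a3 (49). Of 17 AP-1 and MAF genes 2 were covered, Maf and Jun (23, lying 53.4 kb upstream). Of 31 nuclear receptors and coregulators 3 were covered, Nr5a2, Nrip1 and Nr4a3.

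The signalling lists had 2.86% to 13.0% of their genes as nearest genes. Of 35 genes of FGF, WNT, EGF and insulin signalling 2 (5.71%) were covered, Fgfr1 (327) and Pik3r1 (45), and 8 flanked a far peak. Spry2, a gene of an inhibitor of receptor tyrosine kinase signalling, flanked peaks of score 78, 64 and 58, of which the first 2 were assigned to Mir6390. Of 35 genes of TGF-beta, activin and BMP signalling 1 was covered, Inhba, and 2 flanked a far peak. Of 27 genes of cAMP signalling 1 was covered, Rgs2 (60), a gene of a G protein regulator, and 2 flanked a far peak. Of 23 vascular and hypoxia genes 3 (13.0%) were covered, Ednra (134), an endothelin receptor gene, Hif1a and Egln3 (22), a gene of an oxygen-sensing hydroxylase. Of 18 steroid synthesis genes 1 was covered, Nr5a2, and of 34 genes of the extracellular matrix, adhesion and cytoskeleton 3 (8.82%) were covered, Has2, Sdc1 (66 and 55), a syndecan gene, and Cnn3 (55), a calponin gene.

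Lists without a direct tie to ovulation were looked up in the same way. Of 36 genes of neuronal adhesion and the synapse, which often lie in long intergenic stretches, 4 (11.1%) were covered. They were Cntn5 (172, lying 424 kb upstream), Robo2 (131 and 99), Slit2 (82) and Cdh2 (51). Cntn5 encodes a contactin, Robo2 and Slit2 a guidance receptor and its ligand, and Cdh2 the N-cadherin of granulosa cells. The share was in the range of the transcription factor lists. Of 23 cytokine and immune genes none was the nearest gene of a far peak and 1 flanked some, Ptprc, at 824 to 988 kb from the Nr5a2 peaks. The count of 0 holds for the listed genes alone. Immune genes outside the list were nearest to far peaks, among them Ctla4 (138), a T-cell inhibitory receptor gene, Il12b (92), a cytokine subunit gene, Ifngr1 (38), an interferon receptor gene, and Cd180, and these were named after their values were seen. Among 6 lists of 6 marker genes, the lists of theca cells, endothelium, the oocyte and stroma had no nearest and no flanking gene. The immune list had the flanking gene Ptprc alone, and the granulosa list had the nearest gene Nr5a2 and the flanking gene Fshr. Over all protein-coding genes the shares were 0.932% nearest and 2.24% flanking. A nearest-gene count of 0 is therefore usual for lists of 6 or 23 genes, and these counts are not read as a difference between cell types.

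Chromosomes differed in the share of their peaks that were far. Among chromosomes with over 50 peaks it was highest on chromosome 13 (29 of 118, 24.6%) and chromosome 12 (23 of 98, 23.5%) and lowest on chromosome 7 (7 of 137, 5.11%) and chromosome 19 (4 of 71, 5.63%). Chromosome X had few FOS peaks of any kind, 15, of which 6 were far. How much intergenic sequence each chromosome holds was not measured.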

How the data were processed

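The data were 1 table of narrow FOS peaks. Per the file headers, the authors annotated a narrowPeak file with HOMER's annotatePeaks program. The build mm10 and the programs MACS2 2.2.7.1, BWA, deepTools 3.5.1 and Trim Galore are named, per the submitters' processing notes. Neither the peak threshold nor a control library is given there. Each deposited peak score is the authors' whole-number score, of unstated scale, and the signed distance to the TSS is also theirs. Depth is unknown.

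Nearest genes were matched to a RefSeq table of GRCm38.p6, the assembly named mm10 by UCSC, by accession, then symbol, then older symbol. All 1965 names matched. The sign of the distance matched the RefSeq strand for 231 of 235 members whose gene had a start in the RefSeq promoter table. Spacing was measured between peak centres. Members were compared with near intergenic peaks and with all other peaks in 5 shares by Fisher's exact test, two-sided, with Benjamini-Hochberg adjustment over the 10 tests at 0.05. The 2 tests of the side of the TSS stay in that adjustment but are not reported, since the side shares its source with the rule. Intervals are exact 95% binomial intervals (Clopper-Pearson) and cover counting error only. Peaks are not replicates, so a p-value describes this list. Gene lists were described by counts. The members and lists were chosen with earlier results of these data known. Named loci are the 10 members with the highest score, genes with 3 or more members, the 5 farthest members, the members nearest the 50 kb border, covered genes of the lists, groups of 3 or more members, the lowest scores and the 3 widest peaks. Pak1, Zeb2, Sgk1, Bach2, Mycn, Rhob, Klf6, Cited2, Spry2, Platr22, Lpin1, Mir6387 and the RefSeq starts inside peaks were named after their values were seen. A motif search over all peaks was planned but left out for want of a genome sequence. Python 3.11.15, numpy 2.4.6, scipy 1.17.1, pandas 2.3.3 and matplotlib 3.10.9 were used. The test was checked on simulated data.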

Additional observations from a re-analysis of the deposited data

How the results depend on the processing

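All values rest on 1 library whose read depth is unknown, so the limit that depth sets was not measured. The call on protein-coding nearest genes against all other peaks kept its direction and its side of the threshold under the 9 alternatives tried. The first alternative chosen after seeing the data restricted far peaks to those also over 50 kb from every start in the RefSeq promoter table. That table lacked the starts of some genes. The second such alternative adjusted over the 8 tests other than the side of the TSS, and changed no call. Upstream differences are given as values only. With far set at over 100 kb, the upstream difference from all other peaks was 3.45 points, the median distance 166 kb, and 102 protein-coding genes had a far peak in place of 204. With over 25 kb, the width difference from all other peaks turned to 0.866 points, the neighbour difference was -3.10 points, the median distance 67.3 kb and the genes 320. Among upper-scoring peaks alone (the median score or more), the upstream difference from all other peaks was 8.53 points, the neighbour differences -4.07 and -2.14 points, the median score 95 and the genes 113. With 1 peak per run of close peaks, the neighbour difference from all other peaks was -2.53 points. With the RefSeq starts, the upstream difference from all other peaks was 9.47 points, the median distance 110 kb and the genes 104. The score difference from near intergenic peaks, 0.508 points and not called, changed sign with peaks above the lower quartile (-0.326), with 1 peak per run (-0.0121), with the RefSeq starts (-0.660) and with a cut at the upper quartile (-2.86), which also turned the difference from all other peaks (-2.56). Counting either flanking gene gave 51 list genes with a far peak in place of 26. Fewer peaks or genes enter several of these alternatives, and other causes were not tested. No paired analysis was possible because the FOS library is the only one with values here. A motif search over all peaks was not run.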
